A study of Homo sapiens with 12 samples.

Results

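The common gamma chain cytokine receptors and their signalling genes were followed as 10 genes named by symbol, IL2RA, IL2RB, IL2RG, IL15RA, IL7R, IL21R, IL4R, JAK3, STAT5A and STAT5B, out of 17589 genes in the expression table. The rule that chose them uses no measured value, but it was written with earlier results of these data known. All 10 were in the table and all 10 passed the filter on low counts, which kept 13657 genes. IL2RA, IL15RA and IL4R passed it through the FR1 and FR2 libraries, where they were high, and fell under it with CTRL and hnCD16 fitted alone, so counts over the 10 genes are given as descriptions. IL-2, IL-15, IL-7, IL-21 and IL-4 all signal through receptors that share the gamma chain encoded by IL2RG. Each cytokine adds private chains, the gamma chain recruits the kinase JAK3, and for IL-2, IL-7 and IL-15 the signal passes mainly through STAT5. In NK cells IL-15, presented on IL15RA and read by IL2RB with the gamma chain, is known for sustaining survival, proliferation and cytotoxic granule content.

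All 12 libraries were labelled as YT cells, a human NK-like lymphoid line said to lack CD16a. The cells were transduced with lentivirus, sorted for eGFP and expanded, with the transgene under the human EF1A promoter. The CTRL group carried eGFP alone. The hnCD16 group carried a whole CD16a, with its natural cytoplasmic tail, mutated for high affinity and for resistance to cleavage. FR1 joined the hnCD16 ectodomain to 2B4, DAP10 and CD3ζ domains, and FR2 joined it to DAP10 and CD3ζ only, so that FR1 and FR2 differ by the 2B4 domain. Each of the 4 groups had 3 libraries, all from unstimulated cells, and the culture medium given for YT cells names no cytokine. Whether libraries of a group came from separate cultures was not given, so p-values measure the spread between these libraries, which may be technical.

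Totals ran from 17714566 to 18729019 counts a library, and 3 counts, the limit that a count of 0 allows, came to 0.160 to 0.169 CPM (counts scaled to library size). This limit and all intervals cover counting error only. The transgene read as FCGR3A at 0 counts in all CTRL libraries and at 453 to 1132 counts in the others, as the labels say. The FR1 and FR2 libraries stood apart from the CTRL and hnCD16 libraries far beyond the 10 genes. The lowest FR1 or FR2 library exceeded the highest CTRL or hnCD16 library by 4-fold or more for all 10 HLA genes listed and for 7 of 8 genes of the Y chromosome. Of 12 NK cell markers, 5 reached 1 CPM in every library in CTRL and in hnCD16, against 9 in FR1 and 10 in FR2, with summed levels of 63.9 to 75.1 CPM against 3929 to 4272 CPM. NCAM1, NCR1, TBX21, GNLY, PRF1 and GZMB were under 1 CPM on average in CTRL and hnCD16, and KLRF1 was under 1 CPM in all 4 groups, while NCR3 and CD7 were lower in FR1 and FR2. Of 9 T cell markers measured, 8 were lower in all FR1 and FR2 libraries. The other, CD28, was higher, at 92.4 CPM in FR1 and 119 CPM in FR2 on average against 3.18 CPM in CTRL and 3.09 CPM in hnCD16. The summed level of the 9 was 673 to 813 CPM in CTRL and hnCD16 and 129 to 170 CPM in FR1 and FR2. CD3D, a chain of the T cell receptor complex, averaged 440 CPM in CTRL and 521 CPM in hnCD16, against 0.0577 CPM in FR1 and 0.0937 CPM in FR2. Of 5 B cell markers measured, 1 was higher and 3 were lower in all FR1 and FR2 libraries, and the 7 myeloid markers summed to at most 14.5 CPM in any library. Among the 13657 genes tested, 31.4% had their FR1 and FR2 values entirely above the CTRL and hnCD16 range and 33% entirely below. Separation without the 4-fold margin was therefore common, and the share of all genes with that margin was not counted. The libraries thus fell into 2 unlike sets by HLA, Y chromosome and CD3 genes, and whether the libraries labelled CTRL and hnCD16 and those labelled FR1 and FR2 come from the same cell line was not tested. The part of these differences in the results below was not tested either. Every comparison of FR1 or FR2 with hnCD16 or CTRL runs between the 2 sets, so that an effect of the construct and a difference between the cells cannot be told apart in it.

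Promoters are shown for 3 of the genes, IL2RA and IL15RA, which lie next to each other and had large differences, and IL7R, the gene that passed the test as lower. Each runs from 250 bases before to 50 bases after a RefSeq start (GRCh38.p14), read 5′ to 3′ on the gene's strand. Capitals mark TTCNNNGAA, the palindromic motif of STAT factors, and 3 lymphoid motifs searched on both strands, the ETS core CAGGAAG, the RUNX core TGTGGT and the T-box core AGGTGT. No matches overlapped in these 3 windows.
IL2RA, chr10:6062318-6062617, minus strand: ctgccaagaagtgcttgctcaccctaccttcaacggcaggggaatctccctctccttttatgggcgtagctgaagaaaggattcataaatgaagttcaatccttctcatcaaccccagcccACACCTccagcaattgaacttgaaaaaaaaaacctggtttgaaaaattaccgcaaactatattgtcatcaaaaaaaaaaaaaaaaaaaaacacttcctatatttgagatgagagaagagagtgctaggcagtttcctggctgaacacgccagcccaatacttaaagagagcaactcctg
IL15RA, chr10:5977997-5978296, minus strand: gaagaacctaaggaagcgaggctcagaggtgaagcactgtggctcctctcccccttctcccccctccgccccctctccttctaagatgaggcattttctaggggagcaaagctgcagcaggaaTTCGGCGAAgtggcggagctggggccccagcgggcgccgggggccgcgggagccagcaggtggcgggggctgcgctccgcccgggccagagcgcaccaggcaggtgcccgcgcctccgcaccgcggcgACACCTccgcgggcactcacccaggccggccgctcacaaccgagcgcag
IL7R, chr5:35856641-35856940, plus strand: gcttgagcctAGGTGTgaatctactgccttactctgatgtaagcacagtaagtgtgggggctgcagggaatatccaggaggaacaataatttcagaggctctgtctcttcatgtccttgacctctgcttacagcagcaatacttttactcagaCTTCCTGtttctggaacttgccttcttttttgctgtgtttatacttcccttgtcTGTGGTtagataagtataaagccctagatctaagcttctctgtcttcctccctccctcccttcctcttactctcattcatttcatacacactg
The IL15RA window holds TTCGGCGAA, 127 bases before the start, the only match to TTCNNNGAA in the 14 windows listed for 9 of the genes. This motif occurs in 7.66% of 35116 promoters of the same length. Among the 9 genes with a window listed, the ETS core was found in 6 (12.7% of promoters). The T-box core was found in 3 (11.4%) and the RUNX core in 2, IL7R and IL21R (13.1%). A gene counted if any of its windows matched, while the percentages are per single promoter, so the 2 are not alike. A match of letters is a description of the sequence and no evidence of binding.

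The hnCD16 receptor carries the natural CD16a tail where FR1 and FR2 carry fused signalling domains. Against hnCD16, 7 of the 10 genes passed the test in FR1 and 7 in FR2, with 6 higher and 1 lower in each. To pass, a gene had to differ by a log2 fold change of 1 or more in size, with an adjusted p no higher than 0.05 by edgeR's quasi-likelihood test. IL2RA, IL2RB, IL15RA, IL21R, IL4R and JAK3 rose, IL7R fell, and IL2RG, STAT5A and STAT5B did not pass. Of all 13657 genes tested, 38.3% passed in FR1 (18.7% higher and 19.6% lower) and 39.5% in FR2 (19.6% higher and 19.8% lower), so that a large share of the transcriptome moved with the receptor genes. The median log2 fold change of the 10 genes was 2.48 in FR1 and 2.95 in FR2, beside -0.011 and -0.028 over all genes tested. With signs left aside, the median over all genes tested was 0.703 in FR1 and 0.734 in FR2. Against CTRL the same division was found, 6 higher and 1 lower in FR1 and in FR2. Of all genes, 38% passed in FR1 against CTRL (18.3% higher and 19.8% lower) and 38.2% in FR2 against CTRL (18.7% higher and 19.6% lower), and the medians of the 10 genes were 2.50 and 2.98. The comparisons with hnCD16 share their FR libraries with the comparisons with CTRL, and FR1 and FR2 share their controls, so they are not independent. In bulk RNA, fewer cells expressing a gene and less RNA per cell cannot be told apart.

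**Figure D1:**
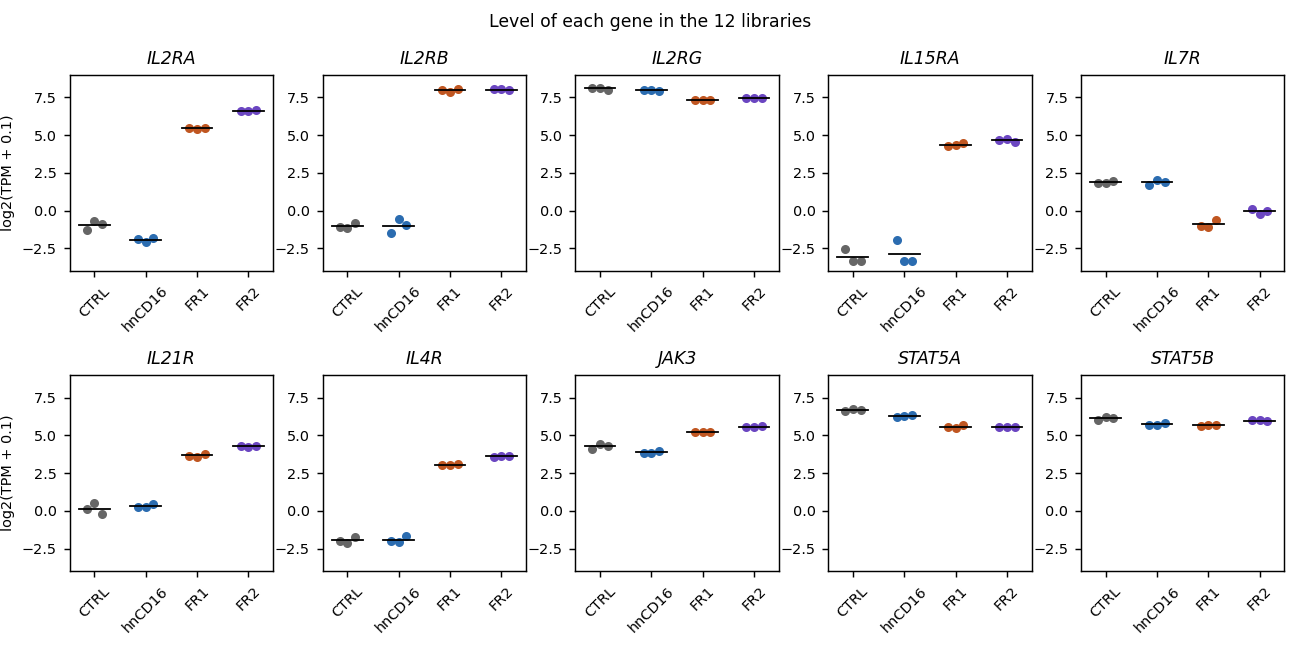
Level of each of the 10 genes in every library, as log2 of TPM (transcript abundance scaled for length and depth) plus 0.1, with 1 point per library and a line at the mean of the 3 log2 values of each group. IL2RA, IL2RB, IL15RA, IL21R and IL4R were at or below 1.32 TPM in all CTRL and hnCD16 libraries and at or above 8.1 TPM in all FR1 and FR2 libraries, while IL2RG, STAT5A and STAT5B were high in all 4 groups.

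IL2RG (chrX:71107404-71112108, GRCh38, minus strand), the chain shared by the whole family, had the highest level of the 7 receptor genes in CTRL and hnCD16. On the TPM scale, which corrects for transcript length and depth, it was at 275.89, 282.32 and 253.85 TPM in the CTRL libraries, 250.58, 256.16 and 243.8 TPM in hnCD16, 158.37, 157.52 and 156.23 TPM in FR1, and 177.2, 177.22 and 173.68 TPM in FR2. Every FR1 library was below every FR2 library, and both were below every hnCD16 and CTRL library. FR1 differed from hnCD16 by a log2 fold change of -0.60 (SE 0.0609, edgeR adjusted p = 6.00e-08) and FR2 by -0.45 (SE 0.0606, edgeR adjusted p = 2.27e-06). Both were smaller than the fold threshold. The order of levels was CTRL, hnCD16, FR2 and FR1 by TPM, but CTRL and hnCD16 did not differ beyond their spread (log2 fold change 0.035, SE 0.0599), and FR1 against FR2, at -0.15 (SE 0.0612) without overlap, missed the threshold (edgeR adjusted p = 0.0664). The sign between hnCD16 and CTRL turns with the scaling, at -0.077 with library sizes only. In this annotation IL2RG overlaps another protein-coding model on its own strand, so its reads could in part belong to that model.

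IL2RB (chr22:37118666-37175118, minus strand), the signalling chain that IL-2 and IL-15 receptors share, was barely expressed in CTRL and hnCD16 and among the more abundant transcripts in FR1 and FR2. The CTRL libraries held 0.37, 0.35 and 0.48 TPM (14.3 to 19.0 expected counts) and the hnCD16 libraries 0.26, 0.58 and 0.42 TPM. The FR1 libraries held 252.47, 231.35 and 263.47 TPM and the FR2 libraries 265.79, 260.76 and 246.6 TPM. The groups fell into 2 separate ranges, with FR1 and FR2 overlapping each other. IL2RB rose by a log2 fold change of 9.29 in FR1 (SE 0.113, edgeR adjusted p = 1.80e-20) and 9.33 in FR2 (SE 0.113, edgeR adjusted p = 1.37e-20) against hnCD16, which placed it 131st and 156th from the top of the 13657 genes. Between FR1 and FR2 the log2 fold change was -0.038 (SE 0.061, edgeR adjusted p = 0.681). In TPM, IL2RB was at 249 ± 16.3 TPM in FR1 against 157 ± 1.08 TPM for IL2RG, and at 0.400 ± 0.070 TPM in CTRL against 271 ± 14.9 TPM for IL2RG (SD, n = 3). The mean TPM of IL2RB exceeded that of 29.1% of all genes in CTRL and of 96.7% in FR1.

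IL2RA (chr10:6010689-6062370, minus strand), the alpha chain that gives the IL-2 receptor its high affinity and is known as CD25, was far higher in FR1 and FR2, and higher in FR2 than in FR1. The CTRL libraries held 0.31, 0.52 and 0.43 TPM and the hnCD16 libraries 0.17, 0.14 and 0.19 TPM. The FR1 libraries held 44.69, 42.04 and 44.93 TPM and the FR2 libraries 97.88, 94.47 and 98.75 TPM. No 2 groups overlapped, and the order from the top was FR2, FR1, CTRL and hnCD16. Against hnCD16 the log2 fold change was 8.22 in FR1 (SE 0.115, edgeR adjusted p = 7.86e-20) and 9.36 in FR2 (SE 0.108, edgeR adjusted p = 1.12e-20), and against CTRL it was 7.04 and 8.17. FR1 was lower than FR2 by a log2 fold change of -1.13 (SE 0.0511, edgeR adjusted p = 2.44e-10), so the construct with the 2B4 domain had the lower IL2RA level. The fall from CTRL to hnCD16 (log2 fold change -1.18, SE 0.305, edgeR adjusted p = 0.0130) rested on 9.38, 16.07 and 12.26 expected counts in CTRL and 5.38, 4.26 and 6.26 in hnCD16. IL2RA entered this comparison only because the FR1 and FR2 libraries carried it past the filter on low counts. With CTRL and hnCD16 fitted alone it was not tested, and with no filter it passed, at -1.18. The call was lost without CTRL replicate 2 (-0.99, edgeR adjusted p = 0.0899) and without hnCD16 replicate 2 (-1.05, edgeR adjusted p = 0.0601).

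IL15RA (chr10:5943639-5978187, minus strand), the high-affinity IL-15 chain, was at or near 0 in CTRL and hnCD16. The expected counts were 1.21, 0 and 0 in CTRL and 3, 0 and 0 in hnCD16. A count of 0 in these 4 libraries allows up to 0.160 to 0.165 CPM. The FR1 libraries held 19.44, 20.34 and 21.65 TPM (316.66, 335.67 and 366.16 counts) and the FR2 libraries 25.88, 26.2 and 23.25 TPM (431.47, 416.78 and 383.71 counts). The FR libraries lay far above all others, and FR2 lay above FR1 without overlap. The ratio of summed counts per library size was 363 in FR1 against hnCD16 (95% counting interval 124 to 1765) and 431 in FR2 against hnCD16 (147 to 2095). Against the single count in CTRL the FR1 ratio was 1167 (209 to 46150) and the FR2 ratio 1386 (248 to 54796). The edgeR adjusted p against hnCD16 was 6.91e-15 in FR1 and 2.60e-15 in FR2. FR1 against FR2 missed the threshold (log2 fold change -0.25, SE 0.0996, edgeR adjusted p = 0.0628), and hnCD16 and CTRL were both at or under 3 counts.

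IL4R (chr16:27313668-27364778, plus strand) and IL21R (chr16:27402174-27452042, plus strand), the ligand-binding chains for IL-4 and IL-21, also rose. IL4R was at 0.15, 0.13 and 0.2 TPM in CTRL, 0.15, 0.14 and 0.22 TPM in hnCD16, 8.25, 8.1 and 8.52 TPM in FR1 and 11.68, 12.54 and 12.31 TPM in FR2. IL21R was at 1, 1.32 and 0.76 TPM in CTRL, 1.09, 1.08 and 1.29 TPM in hnCD16, 12.59, 11.99 and 13.37 TPM in FR1 and 19.73, 18.99 and 19.36 TPM in FR2. For both genes every FR2 library was above every FR1 library, and every FR1 library was above all CTRL and hnCD16 libraries, whose TPM ranges overlapped. The log2 fold change of IL4R against hnCD16 was 5.07 in FR1 (SE 0.138, edgeR adjusted p = 4.53e-16) and 5.69 in FR2 (SE 0.129, edgeR adjusted p = 3.35e-17). That of IL21R was 3.51 in FR1 (SE 0.111, edgeR adjusted p = 3.96e-15) and 4.12 in FR2 (SE 0.107, edgeR adjusted p = 2.20e-16). Between hnCD16 and CTRL neither passed (log2 fold changes 0.54 and 0.30, edgeR adjusted p = 0.318 and 0.167). IL21R overlaps the antisense gene IL21R-AS1 and IL4R a long non-coding RNA on the other strand, as do IL2RA, IL2RB and STAT5B. No strand setting was given for the counting, so reads of these pairs cannot be told apart.

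IL7R (chr5:35852695-35879603, plus strand), the IL-7 receptor alpha chain and a marker of T lineage and innate lymphoid cells, went the other way. It was at 3.37, 3.52 and 3.76 TPM in CTRL and 3.21, 3.98 and 3.57 TPM in hnCD16. It was at 0.4, 0.38 and 0.55 TPM in FR1 (18 to 25 counts) and 0.99, 0.77 and 0.9 TPM in FR2 (36 to 46 counts). All FR1 libraries were below all FR2 libraries, and both were below the overlapping CTRL and hnCD16 ranges. IL7R fell by 2.94 on the log2 scale in FR1 (SE 0.151, edgeR adjusted p = 4.21e-12) and by 1.99 in FR2 (SE 0.132, edgeR adjusted p = 1.54e-10) against hnCD16. FR1 against FR2 gave -0.96 (SE 0.195, edgeR adjusted p = 9.88e-04), just inside the fold threshold. It passed that threshold at -1.11 without FR1 replicate 3 and at -1.04 without FR2 replicate 2. The T cell markers, summed above, were lower in the same libraries.

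JAK3 (chr19:17824780-17848071, minus strand), the kinase bound to the gamma chain, was expressed in all groups and rose in FR1 and FR2. The libraries held 17.29, 20.92 and 19.81 TPM in CTRL, 14.44, 14.19 and 15.19 TPM in hnCD16, 37.31, 37.28 and 37.93 TPM in FR1 and 46.71, 46.2 and 48.59 TPM in FR2. The 4 groups did not overlap, in the order FR2, FR1, CTRL and hnCD16. JAK3 exceeded its hnCD16 level by a log2 fold change of 1.45 in FR1 (SE 0.0554, edgeR adjusted p = 6.31e-14) and 1.78 in FR2 (SE 0.0553, edgeR adjusted p = 2.79e-15), and against CTRL it was 1.19 and 1.53. The FR1 value against CTRL lay near the threshold and came to 0.92 by limma on log2(TPM + 1). FR1 was lower than FR2 (log2 fold change -0.34, SE 0.0518, edgeR adjusted p = 8.79e-05) and hnCD16 lower than CTRL (-0.25, SE 0.0569, edgeR adjusted p = 0.00194), both by less than the fold threshold.

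STAT5A (chr17:42287547-42311943, plus strand) and STAT5B (chr17:42199176-42288633, minus strand), the paralogous transcription factors downstream of JAK3, overlap head to head by 1087 bases. They also share sequence, with 10.6% of the distinct 50-base stretches in STAT5A transcripts found in STAT5B and 7.80% in the other direction, so the division of reads between them is uncertain. STAT5A was at 97.29, 105.77 and 102.58 TPM in CTRL, 74.85, 76.02 and 81.01 TPM in hnCD16, 47.74, 44.59 and 50.15 TPM in FR1 and 45.98, 46.64 and 45.71 TPM in FR2. STAT5B was at 65.65, 73.17 and 72.09 TPM in CTRL, 51.44, 51.02 and 55.2 TPM in hnCD16, 49.81, 50.32 and 51.76 TPM in FR1 and 64.58, 63.04 and 61.33 TPM in FR2. STAT5A had its low values in FR1 and FR2, which overlapped, while STAT5B in FR2 lay above FR1 and hnCD16. Against hnCD16 the log2 fold change of STAT5A was -0.60 in FR1 (SE 0.0475, edgeR adjusted p = 2.04e-09) and -0.64 in FR2 (SE 0.0475, edgeR adjusted p = 7.86e-10). That of STAT5B was 0.020 in FR1 (SE 0.0445, edgeR adjusted p = 0.692) and 0.33 in FR2 (SE 0.0442, edgeR adjusted p = 2.55e-06). None reached the fold threshold. The STAT5B value in FR1 turned to -0.061 with library sizes only and to -0.052 by limma on log2(TPM + 1).

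The sum of STAT5A and STAT5B does not depend on how reads were divided between them. Its mean over 3 libraries was 378 CPM in CTRL (369.5 to 390.4), 316 CPM in hnCD16 (311 to 319), 262 CPM in FR1 (256 to 266) and 294 CPM in FR2 (289 to 299.8), and no 2 groups overlapped. On the log2 scale the sum differed from that of hnCD16 by -0.27 (FR1) and -0.10 (FR2), and hnCD16 differed from CTRL by -0.26. The exact two-sided permutation p was 0.1 in all 6 comparisons, the smallest that 3 against 3 libraries can give. Of the pair's counts, STAT5A took 52.5% ± 0.340 (CTRL), 52.8% ± 0.497 (hnCD16), 42.1% ± 1.05 (FR1) and 36.4% ± 0.689 (FR2) (SD, n = 3). The share was thus near equal in CTRL and hnCD16 and tilted to STAT5B in FR1 and further in FR2.

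**Figure D2:**
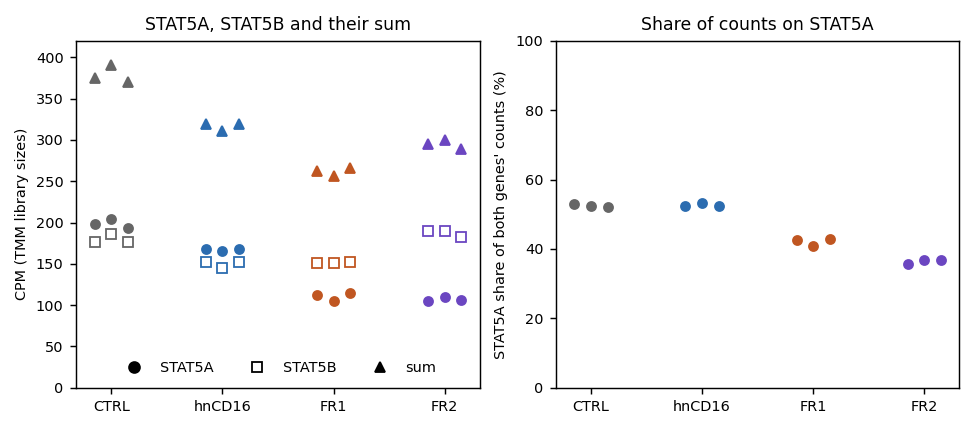
Left, level of STAT5A (circles), STAT5B (open squares) and their sum (triangles) in CPM on TMM library sizes, with 1 point per library. Right, percent of both genes' counts assigned to STAT5A, which lay between 52.2 and 53.4 in the CTRL and hnCD16 libraries, 40.9 and 42.8 in FR1, and 35.6 and 36.9 in FR2.

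FR1 and FR2 differ by the 2B4 domain and also in transgene level, with FCGR3A at 559 to 567 counts against 1012 to 1132. Effects of the domain and of the transgene level cannot be told apart in this comparison. Of the 10 genes, 1 passed, IL2RA, which was lower in FR1, against 1.93% of all genes tested (1.49% lower in FR1). By adjusted p alone, 6 of the 10 genes were under 0.05, beside 36.2% of all genes, and all 6 were lower in FR1, namely IL2RA, IL7R, IL21R, IL4R, JAK3 and STAT5B. The median log2 fold change of the 10 genes was -0.32, beside -0.0035 over all genes, or 0.201 over all genes with signs left aside. IL21R (-0.61, SE 0.0759, edgeR adjusted p = 1.15e-05) and IL4R (-0.62, SE 0.071, edgeR adjusted p = 5.71e-06) differed by nearly the same factor. hnCD16 against CTRL asks what the whole hnCD16 receptor adds to eGFP. It gave 1 gene, IL2RA, lower in hnCD16, beside 0.527% of all genes (0.315% lower). That call rests on the few counts given above and on a gene under the filter in these 2 groups. By adjusted p alone IL2RA, JAK3, STAT5A and STAT5B were under 0.05, 4 of 10 beside 43% of all genes, all lower in hnCD16.

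**Figure D3:**
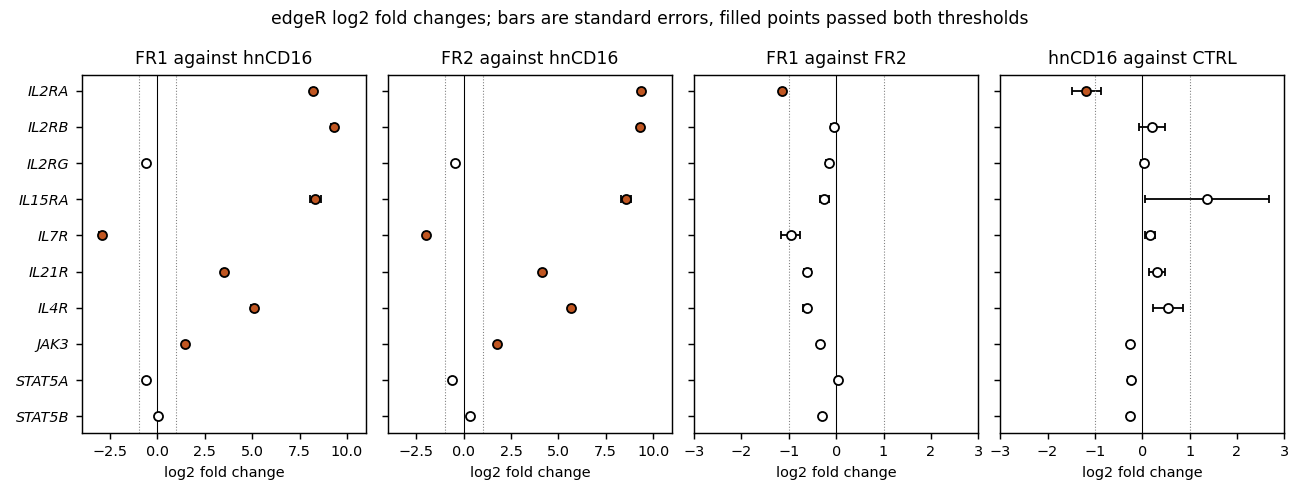
Log2 fold changes of the 10 genes from edgeR in 4 of the comparisons, with bars of 1 standard error and dotted lines at the fold threshold. The first and second panels span -4 to 11 and the other panels -3 to 3. Filled points passed both thresholds, which were 7 genes in each comparison with hnCD16 and IL2RA alone in the other panels. The fitted IL15RA values depend on the prior count, since CTRL and hnCD16 held 3 counts or fewer.

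Transcript assignments by RSEM, given with no test, differed between the pairs of groups for several of the genes. For IL2RA, NM_000417 held 96.1% of the gene's TPM in FR1 and 97.5% in FR2, while the few counts in CTRL and hnCD16 were spread over 3 transcripts. For IL2RB, NM_000878 held 98.2% in FR1 and 98.6% in FR2, whereas in CTRL all 14.3 to 19.0 counts a library were assigned to NM_001346223. In hnCD16 NM_000878 held 29.6%, from 0% to 100% in single libraries, at 11 counts or fewer. For IL7R, all TPM was on NM_002185 in CTRL and hnCD16 (157 to 190 counts) and all on XM_005248299 in FR2 (36 to 46 counts). In FR1, at 18 to 25 counts, each library put its reads on one or the other. For JAK3, NM_000215 held 68.9% (CTRL), 69.1% (hnCD16), 71.5% (FR1) and 74.2% (FR2). In STAT5A, NM_003152 held 23.5% (CTRL), 22.9% (hnCD16), 37.4% (FR1) and 45.3% (FR2). NM_181078 of IL21R held 56.0% in FR1 and 67.7% in FR2. IL15RA and IL4R were spread over 22 and 15 transcripts, and no transcript of either held over 33% in FR1 or FR2.

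**Figure D4:**
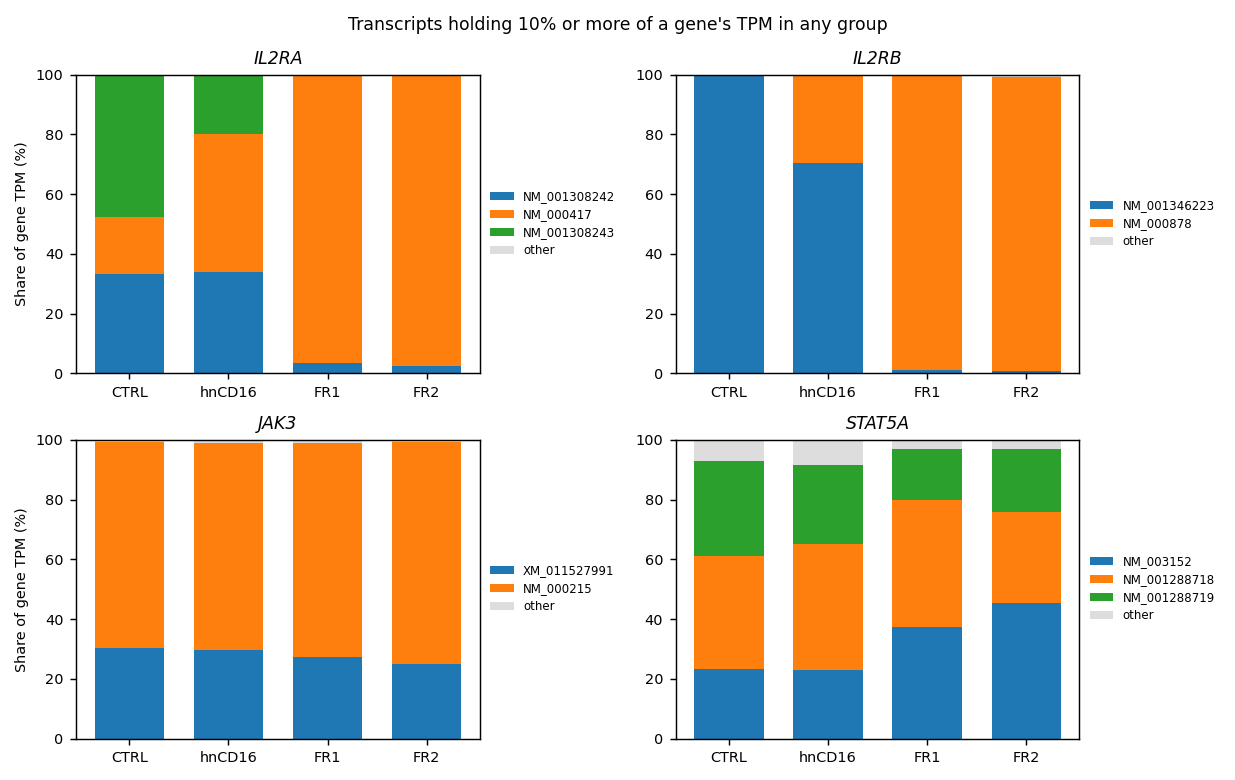
Percent of the gene's TPM on each transcript in each group, from the mean TPM of 3 libraries, for IL2RA, IL2RB, JAK3 and STAT5A. Transcripts with 10% or more in any group are coloured and the rest is grey. The CTRL and hnCD16 bars of IL2RA and IL2RB rest on 4.26 to 24.16 expected counts a library, while JAK3 bars, with 693 or more counts a library, had NM_000215 at 68.9% to 74.2%.

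The ligands measured, IL4, IL7 and IL15, were at low levels. IL2, IL9 and IL21 were not analysed here, and IL4 had 2 counts or fewer in every library. IL15, the main survival cytokine of NK cells, was at 2.09, 2.55 and 3.38 TPM in CTRL, 2.19, 3 and 3.16 TPM in hnCD16, 1.15, 0.65 and 0.78 TPM in FR1 and 0.74, 0.96 and 1.29 TPM in FR2. All FR1 and FR2 libraries, which overlapped each other, lay below all CTRL and hnCD16 libraries. IL15 fell by 1.63 on the log2 scale in FR1 (SE 0.247, edgeR adjusted p = 9.53e-06) and by 1.42 in FR2 (SE 0.239, edgeR adjusted p = 3.13e-05) against hnCD16. Its receptor chains IL15RA and IL2RB went the opposite way. The shared chain IL2RG was lower too, by less than the fold threshold (log2 fold change -0.60 in FR1 and -0.45 in FR2). IL7 had 1 to 8 counts in CTRL and hnCD16 and 8 to 16 in FR1 and FR2, and passed at 2.83-fold and 2.54-fold higher (edgeR adjusted p = 0.0115 and 0.0232). IL7 passed the filter on low counts only through FR1 and FR2, so these values are given as descriptions. Of the other chains that pair within the family, IL9R rose 4.39-fold in FR1 (log2 SE 0.0952, edgeR adjusted p = 5.64e-13) and 4.28-fold in FR2 (log2 SE 0.0953, edgeR adjusted p = 6.88e-13). IL9R lies in a pseudoautosomal region, and its copies share reads. CRLF2, the TSLP receptor chain, had at most 5.9 counts and IL13RA1, which pairs with IL4R, at most 9.68 counts in any library, and neither was tested.

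Genes further along the pathway were counted by list, beside the 18.7% of all genes that rose and 19.6% that fell in FR1 and the 19.6% and 19.8% in FR2 against hnCD16. Of 7 other JAK and STAT genes, 3 rose in FR1 and 4 in FR2 and none fell against hnCD16. STAT4, which serves IL-12 signalling, had log2 fold changes of 7.89 and 8.44, STAT3, used by IL-21, 1.22 and 1.25, and JAK1, the partner kinase of JAK3, 1.13 and 1.09 in FR1 and FR2. STAT4 had 0, 0 and 1 counts in hnCD16, so its fitted values depend on the prior count. It passed the filter on low counts through FR1 and FR2. Of 11 adaptor and PI3K genes, 4 rose and 1 fell in each comparison, 45.5% of the list beside 38.3% (FR1) and 39.5% (FR2) of all genes, which is near that background. PIK3CD, the leukocyte PI3K catalytic subunit, had 4.52 and 4.14, SHC1, the adaptor on IL2RB, 1.78 and 1.72, and AKT1 1.24 and 1.62, while the scaffold GAB2 was at -3.26 and -2.73. Each of these named genes was past both thresholds by edgeR in both comparisons.

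Of 10 negative regulators, 5 rose and 1 fell in FR1 and in FR2, beside 38.3% and 39.5% of all genes that passed in either direction. The feedback inhibitors SOCS3 (8.99 and 9.48), SOCS1 (6.42 and 6.66) and CISH (2.58 and 2.99) and the STAT inhibitor PIAS3 (2.53 and 2.94) were the named genes that rose, with the log2 fold changes in FR1 and FR2. The gene that passed as lower was SOCS2 in FR1 (-1.28) and PTPN6 in FR2 (-1.12), both named after their values were seen. SOCS2 was also lower in FR2 (-0.88) and PTPN6 in FR1 (-0.98), both short of the fold threshold. Of 15 genes tested from a list of known STAT5 targets, 9 rose in each comparison, while 4 fell in FR1 and 3 in FR2. PRDM1 (9.83 and 9.79), CCND2 (9.22 and 9.42), BCL6 (8.43 and 9.36) and PIM1 (8.20 and 8.27) rose, the first a regulator of effector differentiation, the second a D cyclin, the third a repressor and the last a survival kinase. MYC, also a growth target of IL-2 and chosen here after its value was seen, fell by 2.25 and 2.12. CISH, SOCS1 and SOCS2 stand on both lists. Members of the target list are known targets of other factors too, and the list's median log2 fold change was 3.13 in FR1 and 3.32 in FR2. Of 10 tested receptor chains of other cytokine families, 7 rose and none fell, led by IL10RA (10.03 and 10.55), IL18R1 (9.53 and 9.77), IL18RAP (7.22 and 7.86) and IL6ST (4.73 and 4.82). In hnCD16, IL10RA, IL18R1 and IL18RAP had at most 1 count a library, PRDM1 at most 2 and BCL6 at most 4. Their fitted values depend on the prior count. SOCS3 had at most 7 counts in a library of hnCD16, SOCS1 at most 8 and CCND2 at most 9. All of these genes passed the filter on low counts through FR1 and FR2, so their rises are given as descriptions.

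**Figure D5:**
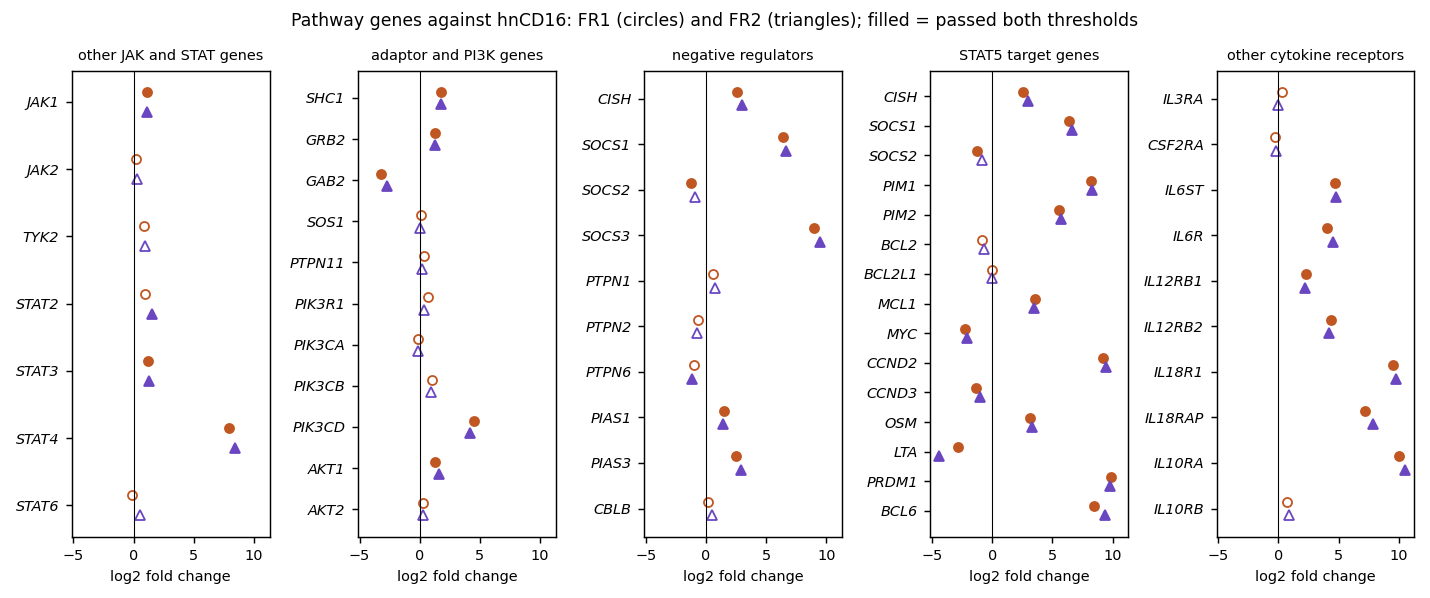
Log2 fold changes against hnCD16 of the tested genes on 5 lists around the receptors, with circles for FR1 and triangles for FR2, filled where both thresholds were passed. The same genes passed in FR1 and FR2 except STAT2 and PTPN6, which were past both thresholds in FR2 but not in FR1, and SOCS2, in FR1 but not in FR2. None of these 3 passed in FR1 against FR2.

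IL15RA and IL2RA are separated by 32501 bases on chromosome 10, and IL4R and IL21R by 37395 bases on chromosome 16, so 4 of the 6 genes that rose lie in 2 neighbouring pairs. The genes around them were looked at after these values were seen. Of 6 protein-coding genes within 200000 bases of the IL15RA and IL2RA pair, none passed in FR1 and 1 passed in FR2, PFKFB3 at a log2 fold change of 1.27. RBM17, the next gene upstream of IL2RA, had -0.26 in FR1 and -0.25 in FR2, and FBH1, beyond the far end of IL15RA, 0.42 and 0.92. Of 4 such genes around IL4R and IL21R, none passed in FR1 and 1 in FR2, NSMCE1 at -1.15. Around STAT5A and STAT5B, 4 of 10 tested genes passed in FR1 and 3 in FR2, among them STAT3. Of all genes, 38.3% passed in FR1 and 39.5% in FR2, so the share around the STAT5 genes was near or under the background, and with so few genes the counts around the other pairs are given as values.

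The genes with the most similar pattern over the 12 libraries were found by the root mean square distance between centred log2(CPM + 1) profiles. The nearest gene was DPP4 for IL2RB (0.145), IL18R1 for IL15RA (0.0662), ALB for IL2RA (0.231), ABCA3 for IL4R (0.0964) and EHD4 for IL21R (0.128). It was UBE2E3 for IL7R (0.132), MGAT1 for JAK3 (0.0608), POLR1D for IL2RG (0.0383), DIDO1 for STAT5A (0.0481) and BRD1 for STAT5B (0.0452). The 12 libraries are 4 groups of 3, so these distances describe mainly the order of the group levels.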

How the data were processed

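RNA from unstimulated cells labelled as YT was sequenced in 12 libraries, 3 for each of CTRL, hnCD16, FR1 and FR2, and the labels name both ribosomal RNA depletion and oligo(dT) selection. The authors mapped reads to GRCh38.p13 with HISAT2 2.1.0 and deposited expected counts and TPM per gene and transcript from RSEM 1.3.1, and the submitters' processing notes also name Bowtie2 2.3.4.3. The strand setting is not given in the sources used here. Groups came from the sample titles. After rounding to integers, expected counts were fitted in edgeR 4.0.16 (R 4.3.3) over all 12 libraries, with TMM normalization, filterByExpr, the quasi-likelihood test and Benjamini-Hochberg adjustment over 13657 genes. DESeq2, which the authors used, was an alternative here (1.42.0), as was limma 3.58.1 on log2 TPM. CPM are on TMM library sizes and SE is the fold change divided by the root of F. Ratios with 1 to 3 counts carry exact 95% intervals. The scripts were tested on simulated data.

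The 10 genes and all lists were chosen with earlier results of these data known. All 10 are named in every comparison, as is every ligand and partner chain. From each other list, up to 4 genes with the largest log2 fold change in FR1 against hnCD16 are named among those passing in FR1 and in FR2 with 1 sign and at least 1 CPM. The 40 other value columns of the gene table, which hold FPKM, normalized counts and the authors' group means, were not used, and 1 gene of the JAK and STAT list is not reported here. Gene positions are from GENCODE v44 (GRCh38) and promoters from RefSeq (GRCh38.p14). Settings tried were other scalings, tools, filters and thresholds, the replicate block and leaving out each library. Libraries sharing a replicate number did not deviate together in every pair (correlations from -0.102 to 0.404), so the numbers were not taken as pairs.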

Additional observations from a re-analysis of the deposited data

How the results depend on the processing

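The counts of 7 genes in the FR1 and FR2 comparisons with hnCD16 and CTRL stayed within 1.5 times under every setting tried. Leaving out each library was included, and a list of 10 genes could leave that range only downwards. In FR1 against CTRL, JAK3 no longer passed with library sizes only (0.9995) or by limma at pseudocounts 1 and 0.1 (0.92 and 0.96). STAT5A passed there in its place, with the values given below. With no fold threshold the counts were 9 (FR1) and 10 (FR2) against hnCD16 and 10 and 9 against CTRL. At a log2 fold change of at least 2, JAK3 no longer passed in these comparisons, nor did IL7R in those of FR2. In hnCD16 against CTRL the count of 1 became 0 by limma with either pseudocount, with only the 2 groups fitted (IL2RA was then under the filter on low counts and not tested), and at a log2 fold change of at least 2, and 4 with no fold threshold. In FR1 against FR2 the count of 1 became 2 with library sizes only, 6 with no fold threshold and 0 at a fold change of at least 2. Leaving out single libraries gave 0 to 1 in hnCD16 against CTRL and 1 to 2 in FR1 against FR2. With the replicate block the counts were 7, 7, 7, 7, 1 and 1, as without it, and it changed no call of the 10 genes.

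Library sizes only moved the median of all genes by -0.19, -0.13 and -0.11 (log2) in FR1, FR2 and hnCD16 against CTRL, and limma on log2(TPM + 1) by -0.21, -0.20 and -0.14, so values near 0 turned with them. With library sizes only, then limma at pseudocounts 1 and 0.1, STAT5B was at -0.061, -0.052 and -0.053 in FR1 against hnCD16 and at -0.073, -0.16 and -0.16 in FR2 against CTRL, and IL2RG at -0.077, -0.11 and -0.11 in hnCD16 against CTRL. STAT5A in FR1 against FR2 was -0.023 with library sizes only. STAT5A against CTRL then passed the fold threshold, at -1.04, -1.09 and -1.10 in FR1 and -1.02, -1.13 and -1.14 in FR2. Leaving out 1 library also turned some values, with the library that did so in parentheses. In FR1 against hnCD16, STAT5B ran from -0.00089 (hnCD16 replicate 2) to 0.033. In hnCD16 against CTRL, IL2RB ran from -0.096 (hnCD16 replicate 2) to 0.45, IL2RG from -0.052 (CTRL replicate 3) to 0.083 and IL15RA from -1.79 (hnCD16 replicate 1) to 3.15. In FR1 against FR2, IL2RB ran from -0.085 to 0.011 (FR1 replicate 2) and STAT5A from -0.00064 (FR2 replicate 1) to 0.076. None of these had passed the test.

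The summed STAT5 difference by TPM and by library sizes was -0.40 and -0.35 in FR1 against hnCD16, -0.81 and -0.72 in FR1 against CTRL, -0.66 and -0.49 in FR2 against CTRL, and -0.41 and -0.37 in hnCD16 against CTRL. It was -0.25 by TPM in FR2 against hnCD16 and -0.23 by library sizes in FR1 against FR2. The cause of these shifts was not tested. At this depth, differences in IL15RA, IL2RA, IL2RB and IL4R between CTRL and hnCD16 rest on 24.16 expected counts or fewer a library.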
